A study of Drosophila melanogaster
Gallus gallus with 8 samples.

Results

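The peaks described here are the regions of DNA:RNA hybrid signal called on chromosomes 6, 7, 8, 9 and 10 of the chicken genome, its chromosomes of intermediate size. They were taken by chromosome name alone, from the broad peak list of each genotype, and no measured value entered the choice. The *primpol* list placed 5265 peaks on these 5 chromosomes and the wild type list 4659. Together these made 9924 of the 89913 peaks in the lists, which held 48468 peaks in *primpol* and 41445 in wild type.

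An R-loop forms when a transcript anneals to its DNA template and displaces the other strand, leaving a DNA:RNA hybrid beside a single strand. R-loops are common where genes start and end, and RNase H removes them by degrading the RNA of the hybrid. PrimPol is a primase and polymerase that starts new DNA synthesis beyond an obstacle in the template, so that replication can continue past structures that stop the main polymerase. The chicken karyotype runs from a few large macrochromosomes through intermediate chromosomes to many microchromosomes, which are small, rich in genes and rich in G and C.

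The samples were DT40 cells, a line of chicken B cells, either PrimPol-deficient (*primpol*) or wild type. Hybrids were recovered with S9.6, an antibody against DNA:RNA hybrids, and sequenced (DRIP-seq), with *Drosophila* S2 cells mixed in beforehand, 1 for every 3.75 DT40 cells by the labels (the study's methods state another ratio). The 8 libraries formed 6 groups, namely *primpol* DRIP (2 libraries), *primpol* DRIP after RNase H (1), *primpol* input (1), wild type DRIP (2), wild type DRIP after RNase H (1) and wild type input (1). Each genotype was represented by 1 cell line and 1 list of peaks, to which the labels assign both of its DRIP libraries, so the spread between replicates is unknown and the genotypes were compared without a p-value. Intervals below are 95% intervals that take each peak as independent and cover counting error alone.

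Depth differed mainly between the inputs. Once duplicates were removed, *primpol* peaks had been called on 44735404 tags from DRIP and 30302032 from input, and wild type peaks on 46425192 and 23107894. Peak heights are fragment pileups on the scale of each genotype's own input. There the caller's lowest background, set by its stated genome size of 1870 Mb, was 3.03 in *primpol* and 2.26 in wild type. Heights of both lists are therefore not on a common scale, and were compared as ranks within a list. Where the heights of a named pair stand side by side, each is on its own list's scale.

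More peaks were called in *primpol* on each of the 5 chromosomes. The question was how densely hybrids were called along these chromosomes in each genotype and by how much the genotypes differed. Pooled, the peaks stood at 35.9 per Mb in *primpol* and 31.8 per Mb in wild type, over 147 Mb, with each chromosome measured up to its last peak. The ratio of *primpol* to wild type peak numbers was 1.13 (interval 1.09 to 1.18). Peaks covered 6895 kb in *primpol*, 4.70% of the length, and 5796 kb in wild type, 3.95%.

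Chromosome 7 had the largest ratio and chromosome 10 the smallest. On chromosome 6 there were 1306 *primpol* and 1142 wild type peaks, or 36.8 and 32.2 per Mb, a ratio of 1.14 (1.06 to 1.24). On chromosome 7 there were 1423 *primpol* and 1205 wild type peaks, or 38.6 and 32.7 per Mb, a ratio of 1.18 (1.09 to 1.28). Chromosome 8 was the densest of the 5 in wild type. It held 1118 *primpol* and 1009 wild type peaks, or 37.4 and 33.7 per Mb, a ratio of 1.11 (1.02 to 1.21). The 2 shortest chromosomes were the sparsest in both genotypes. Chromosome 9 held 800 *primpol* and 721 wild type peaks, or 33.3 and 30.0 per Mb, a ratio of 1.11 (1.00 to 1.23). Chromosome 10 held 618 *primpol* and 582 wild type peaks, or 30.3 and 28.6 per Mb, a ratio of 1.06 whose interval (0.947 to 1.19) includes 1. The intervals of all 5 chromosomes overlap, so they give no order of the ratios beyond counting error.

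**Figure D1:**
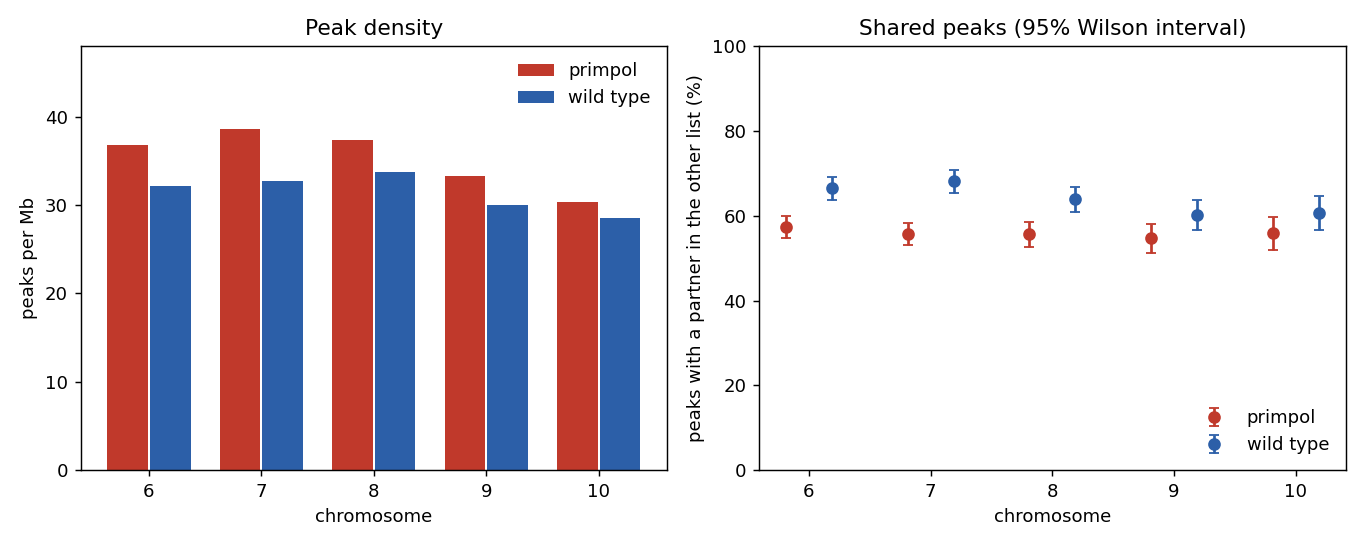
Left, peaks per Mb on chromosomes 6 to 10 in *primpol* (red) and wild type (blue). Right, percent of peaks overlapping a peak of the other list, with 95% Wilson intervals. Density was higher in *primpol* on every chromosome, by between 1.77 peaks per Mb on chromosome 10 and 5.91 on chromosome 7. The shared percentage was lower in *primpol* on every chromosome. The numbers of shared peaks were close, 2946 in *primpol* and 3012 in wild type when pooled, so this follows from the larger number of *primpol* peaks.

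The excess in *primpol* on these chromosomes was no greater than that of the whole list. The 5 chromosomes held 10.9% of the *primpol* list and 11.2% of the wild type list, a ratio of shares of 0.966 with an interval of 0.931 to 1.00. On single chromosomes this ratio lay between 0.908 on chromosome 10 and 1.01 on chromosome 7, and all 5 intervals included 1. Chromosomes 6 to 10 also stood between their neighbours in density. Chromosomes 1 to 5 had 58.2 peaks per Mb in *primpol* and 49.7 in wild type, and chromosomes 11 to 15 had 28.7 and 26.6. The ratio of peak numbers was 1.17 (1.15 to 1.19) on chromosomes 1 to 5 and 1.08 (1.02 to 1.14) on chromosomes 11 to 15, against 1.13 here.

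Input depth differed between the genotypes beside the count. Input tags in *primpol* numbered 1.31 times those in wild type after removal of duplicates. When the *primpol* peaks were rescored at the wild type input depth, 2988 remained on the 5 chromosomes against 4659 in wild type, a ratio of 0.641. The ratio over the whole lists was then 0.723. This rescoring can drop *primpol* peaks but cannot add any, so that a lower ratio follows from its construction. The part of depth in the deposited ratio was not tested. Where only peaks with a −log10 q-value (the caller's score, adjusted over the genome) of 2 or more were counted, 918 *primpol* and 663 wild type peaks remained, a ratio of 1.38. Over the whole lists 10611 *primpol* and 7439 wild type peaks remained, a ratio of 1.43, so the excess here was again no greater.

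Peaks were slightly wider in *primpol*. The question was whether the regions themselves differed in extent. The median width was 799 bp in *primpol* (quartiles 446 and 1601 bp) and 773 bp in wild type (quartiles 426 and 1499.5 bp). The narrowest peaks, 187 bp in *primpol* and 183 bp in wild type, had exactly the fragment length estimated for each list, which is the least the caller reports. By chromosome the median was 833.5 bp in *primpol* and 796 bp in wild type on chromosome 6, 820 and 772 bp on chromosome 7, and 774.5 and 739.5 bp on chromosome 10. It was slightly lower in *primpol* on chromosome 8, at 784.5 bp against 790 bp, and on chromosome 9, at 749.5 bp against 751 bp. The pooled medians lay between those of the neighbouring groups, with medians of 871 bp in *primpol* and 822 bp in wild type on chromosomes 1 to 5 and of 778 and 749 bp on chromosomes 11 to 15.

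Wide peaks were few in number and held much of the covered length. Peaks of at least 2 kb numbered 979 in *primpol*, 18.6% of its peaks and 52.2% of its covered bases, and 799 in wild type, 17.1% of its peaks and 49.7% of its covered bases. Peaks of at least 5 kb numbered 171 in *primpol* (3.25%) and 132 in wild type (2.83%). Over the whole lists, peaks of at least 2 kb made up 20.2% in *primpol* and 18.5% in wild type. Those of at least 5 kb made up 3.12% and 2.78%, so these shares were near those of the whole lists. Chromosomes 7 and 8 were richest in wide peaks. The share of at least 2 kb was 20.7% in *primpol* and 18.2% in wild type on chromosome 7, and 20.7% and 19.1% on chromosome 8. Chromosome 9 had the lowest share in *primpol*, 15.6%, and chromosome 10 the lowest in wild type, 14.3%. At the other end, 626 *primpol* peaks (11.9%) and 628 wild type peaks (13.5%) were narrower than 300 bp.

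Spacing was shorter in the deposited *primpol* list on every chromosome. The median gap between the facing edges of neighbouring peaks was 12.9 kb in *primpol* (quartiles 3.66 and 31.6 kb) and 15.2 kb in wild type (quartiles 3.95 and 37.5 kb). The smallest difference was on chromosome 8, with 12 kb in *primpol* and 13.7 kb in wild type. The largest was on chromosome 6, with 12.8 kb in *primpol* and 15.7 kb in wild type. The shortest gaps, 749 bp in *primpol* and 733 bp in wild type, lie 1 bp above 4 fragment lengths, the distance within which the caller joins signal. Gaps under 1 kb made up 7.85% of gaps in *primpol* and 8.17% in wild type, and the lists differed more at gaps of several kb and longer. Spacing stayed shorter in *primpol* with the minimum of 2 on the −log10 q-value, at 74.5 kb against 100.7 kb in wild type. It also did with peaks within 1 kb merged, between midpoints and with each chromosome left out. The order of the genotypes was not kept with rescoring or with lists of equal length. The median gap was 23.5 kb in *primpol* and 15.2 kb in wild type when *primpol* alone was rescored, at the wild type input depth. In the 20000 best-scoring peaks of each list it was 37.7 kb in *primpol* and 36.9 kb in wild type, with overlapping intervals.

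**Figure D2:**
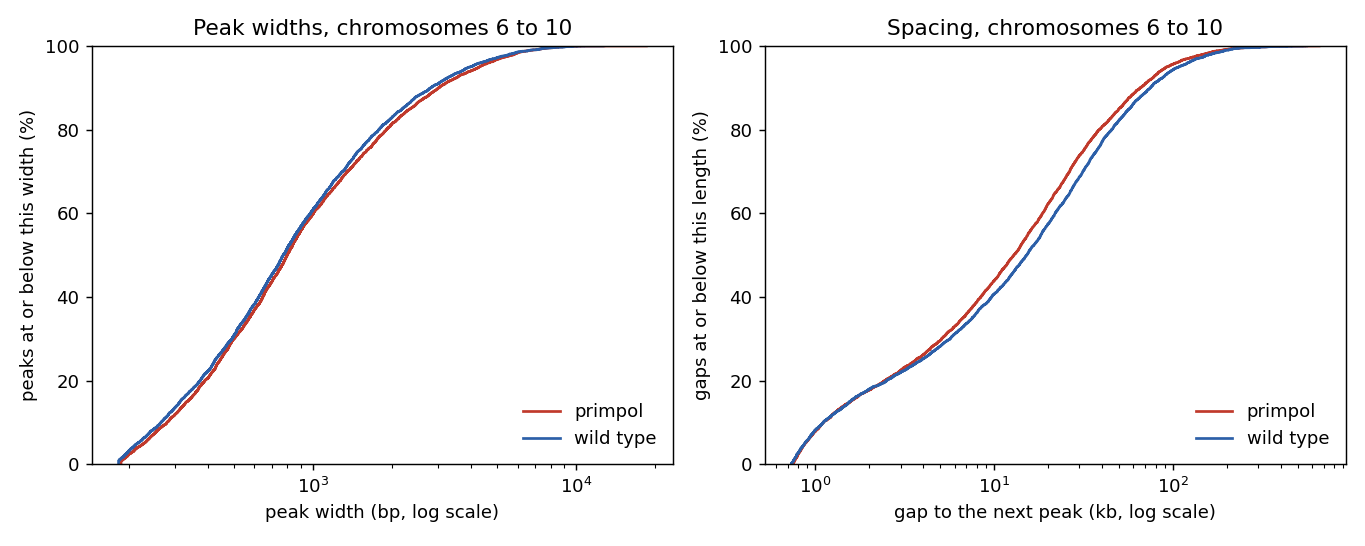
Cumulative percent of peaks by width (left, bp, log axis) and of gaps by length (right, kb, log axis) on chromosomes 6 to 10, *primpol* in red and wild type in blue. The width curves nearly coincide, with medians of 799 bp in *primpol* and 773 bp in wild type, while the gap curves separate above a few kb, with medians of 12.9 kb and 15.2 kb.

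Peaks were unevenly spaced, with clusters and long empty stretches. The standard deviation of the gaps was 1.55 times their mean in *primpol* and 1.47 times in wild type. Peaks in runs of 2 or more, with gaps under 2 kb, made up 33.1% of peaks in *primpol* and 33.2% in wild type. Runs of at least 5 peaks numbered 1 in *primpol*, on chromosome 7 at 18568007 to 18576416, and 4 in wild type, of which the one with most peaks, 6, lay on chromosome 8 at 24021887 to 24040630. The *primpol* list had 3 peaks in that stretch. Gaps of at least 100 kb numbered 230 in *primpol*, 38.4 Mb in sum, and 268 in wild type, 44.1 Mb in sum.

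The longest empty stretches were partly common to both genotypes. On chromosome 8 the longest gap was 547 kb in both lists, at 10496631 to 11044004 in *primpol* and 10497383 to 11044850 in wild type. On chromosome 7 it was 657 kb in *primpol*, at 22015789 to 22673180, where wild type had 4 peaks, and 560 kb in wild type, at 7289099 to 7848672, where *primpol* had 2. On the other chromosomes the longest gaps also lay at different places. They measured 468 kb in *primpol* and 460 kb in wild type on chromosome 6, 344 and 458 kb on chromosome 9, and 391 and 326 kb on chromosome 10. Stretches of at least 100 kb free of peaks in both lists numbered 172 and summed to 26.4 Mb. The longest, 558 kb, was on chromosome 7 at 7290639 to 7848611. Whether unplaced or unmappable sequence lies in these stretches was not analysed here.

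Over 50% of the peaks of each list overlapped a peak of the other by at least 1 bp, and fewer did under stricter rules. The question was how far the same regions carried hybrids with and without PrimPol. Of the *primpol* peaks, 2946 (56.0%, interval 54.6 to 57.3%) overlapped a wild type peak by at least 1 bp, against 57.8% over the whole *primpol* list. Of the wild type peaks, 3012 (64.6%, interval 63.3 to 66.0%) overlapped a *primpol* peak, against 69.7% over the whole wild type list. The shared numbers were close, so the lower percentage in *primpol* follows from its larger number of peaks, 5265 against 4659. The wild type share on these chromosomes lay below that of chromosomes 1 to 5, 71.8% (71.3 to 72.3%), while that of chromosomes 11 to 15, 63.0% (61.0 to 64.9%), overlapped it. The *primpol* share was 59.3% on chromosomes 1 to 5 and 58.2% on chromosomes 11 to 15. Where overlap had to reach 50% of both peaks, 28.3% of *primpol* and 31.9% of wild type peaks were shared. With the minimum of 2 on the −log10 q-value the shares were 34.2% and 47.4%. That minimum was applied to both lists, so a peak whose partner scored lower counted as unshared. As deposited, the median −log10 q-value was 1.66 in shared and 1.38 in unshared *primpol* peaks, and 1.53 and 1.32 in wild type. Counted in bases, 3772 kb were covered in both lists, 54.7% of the *primpol* and 65.1% of the wild type covered length.

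The shared percentage hardly varied by chromosome in *primpol* and varied more in wild type. In *primpol* it lay between 54.6% on chromosome 9 and 57.4% on chromosome 6, with overlapping intervals. In wild type it was 68.1% (65.4 to 70.7%) on chromosome 7, 66.5% (63.8 to 69.2%) on chromosome 6, 63.8% (60.8 to 66.7%) on chromosome 8, 60.7% (56.6 to 64.5%) on chromosome 10 and 60.2% (56.6 to 63.7%) on chromosome 9. The intervals of chromosomes 7 and 9 did not overlap. With *primpol* rescored at the wild type input depth, 68.9% of *primpol* peaks and 47.1% of wild type peaks had a partner. Only *primpol* peaks are dropped in this setting, so the wild type share can only fall in it.

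Width separated shared from unshared peaks. Below 300 bp, 30.0% of *primpol* and 38.2% of wild type peaks had a partner. From 1 to under 2 kb the shares were 69.0% in *primpol* and 82.2% in wild type, and from 2 to under 5 kb they were 93.4% and 98.1%. Every peak of at least 5 kb had a partner, 171 of 171 in *primpol* and 132 of 132 in wild type. A wider peak also has more bases in which an overlap can fall. The median width was 1258 bp in shared and 546 bp in unshared *primpol* peaks, and 1102 and 500 bp in the same classes of wild type. Only 53 *primpol* and 13 wild type peaks of at least 2 kb had no partner.

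Height and crowding moved with sharing as well. When the *primpol* peaks were divided by height into 5 groups of equal size, from the lowest group to the highest 31.6, 46.4, 53.2, 66.8 and 81.8% had a partner. In wild type the 5 groups had 47.4, 58.6, 64.4, 74.1 and 78.6%. The share rose with height in both lists, over a wider span in *primpol*, and in the highest group the intervals of the genotypes overlapped. Peaks within 1 kb of another peak of their own list were shared in 70.1% of cases in *primpol* and 79.3% in wild type, while peaks at least 50 kb from any other were shared in 41.2% and 45.9%.

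**Figure D3:**
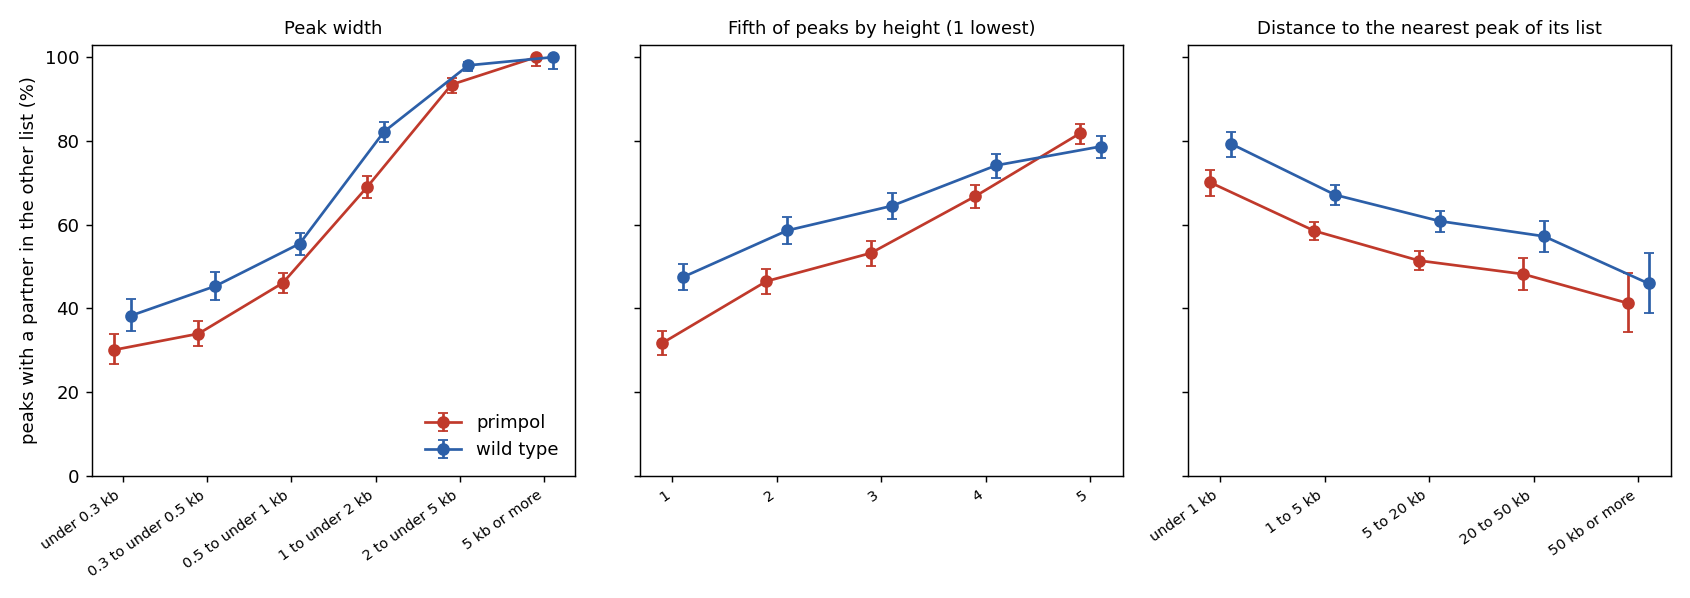
Percent of peaks with a partner in the other list on chromosomes 6 to 10, with 95% Wilson intervals, by peak width (left), in 5 groups of peak height from lowest to highest (middle) and by distance to the nearest peak of the same list (right), *primpol* in red and wild type in blue. The share rises with width to 100% in both genotypes, rises with height and falls with isolation.

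Most unshared peaks lay at least 1 kb from any peak of the other list. For the 2319 unshared *primpol* peaks the nearest wild type peak was at a median distance of 7.39 kb, and 18.1% were within 1 kb. For the 1647 unshared wild type peaks the nearest *primpol* peak was at a median of 5.68 kb, and 22% were within 1 kb. Peaks at least 50 kb from the other list numbered 122 in *primpol* and 76 in wild type. The remotest lay 228 kb away in *primpol* and 210 kb away in wild type.

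Overlapping peaks formed 2764 groups, most of them simple pairs. In 2381 groups 1 *primpol* peak met 1 wild type peak. A single *primpol* peak overlapped several wild type peaks in 207 groups, a single wild type peak overlapped several *primpol* peaks in 151, and 25 groups held several of both. The extreme case was the widest peak of either list on these chromosomes, a *primpol* peak of 18466 bp on chromosome 8 at 2742867 to 2761332. It spanned 5 wild type peaks of 7841, 1848, 844, 2758 and 1004 bp, which together covered 14295 bp. The reverse occurred on chromosome 7, where the widest wild type peak, 10726 bp at 12395935 to 12406660, met *primpol* peaks of 2581 and 7637 bp. These reached slightly past both of its edges, from 12395733 to 12406735.

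Within the 2381 pairs the *primpol* peak was more often the wider one. It was wider in 1376 pairs and narrower in 1005, so that 57.8% (55.8 to 59.8%) were wider in *primpol*, and the median difference was 90 bp, with quartiles of -284 and 561 bp. Among these 5 chromosomes the share ran from 55.4% on chromosome 10 to 61.6% on chromosome 7, and the interval of chromosome 10 (49.5 to 61.1%) included 50%. The share was larger in wide pairs. Among pairs with a mean width of 0.5 to under 1 kb the *primpol* peak was wider in 52.5% (49.0 to 56.1%), and among those of 2 to under 5 kb in 66.8% (62.3 to 71.0%). At the common input depth the share over all remaining pairs was 58.0%. That setting drops *primpol* peaks and leaves widths as called, so it does not test how depth affects width. Edges were placed with a median shift of 231 bp at the start and 237 bp at the end.

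Height ranks agreed moderately between the genotypes. Across the 2381 pairs the Spearman correlation of height was 0.577, and it was 0.401 for fold enrichment and 0.419 for the −log10 q-value. Both lists share the genome sequence and its mappability, and peaks are not independent, so these are descriptions only. By chromosome the correlation of height fell in order from 0.640 on chromosome 6 to 0.507 on chromosome 10, with 0.565 on chromosomes 7 and 8 and 0.544 on chromosome 9. Within pairs, fold enrichment over the local background was 0.897 times as high in *primpol* as in wild type at the median. It was higher in *primpol* in 246 pairs (10.3%). Over all assembled chromosomes the median ratio was 0.898, and 11.5% of 21851 pairs were higher in *primpol*. The part of input depth in these values was not tested.

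Most of the peaks were weak by the caller's own score. The median −log10 q-value was 1.51 in *primpol* and 1.46 in wild type, where the lowest values were 1.02 in *primpol* and 1.00 in wild type. Over the whole lists the medians were 1.57 and 1.51, so low scores were not particular to these chromosomes. Values of at least 5 were reached by 7 of 5265 *primpol* and 8 of 4659 wild type peaks on the 5 chromosomes. On all assembled chromosomes 132 of 47337 *primpol* and 94 of 40529 wild type peaks reached them. The median fold enrichment was 2.30 in *primpol* and 2.55 in wild type.

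Peak numbers in windows of 1 Mb followed each other closely. The question was whether the extra *primpol* peaks were spread evenly along the chromosomes. Over 144 whole windows the number ran from 7 to 86 in *primpol*, with a median of 35, and from 6 to 66 in wild type, with a median of 31. Pearson's correlation across windows was 0.887 and Spearman's 0.883, as a description of windows on the same sequence. *Primpol* had more peaks in 96 windows, the same number in 6 and fewer in 42. Its numbers were also more uneven, with a coefficient of variation of 45.2% against 38.5% in wild type.

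As deposited, the ratio of peak numbers was highest in the densely occupied windows. The windows were ranked by the peaks of both lists and divided into 3 groups of 48. In the densest group *primpol* had 54.9 peaks per Mb and wild type 45.4, a ratio of 1.21 (1.14 to 1.28), with more in *primpol* in 43 of 48 windows. In the middle group the ratio was 1.09 (1.02 to 1.17). In the sparsest group *primpol* had 19.1 and wild type 19.4 peaks per Mb, a ratio of 0.984 (0.897 to 1.08), with more in *primpol* in 22 windows and fewer in 23. Ranked by the number of pairs instead, the ratios were 1.18, 1.11 and 1.02 from the densest to the sparsest group. The first ranking uses the counts that it compares.

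Sharing differed between these windows too. In the densest group 58.1% of *primpol* and 72.8% of wild type peaks had a partner, and in the sparsest group 53.3% and 52.8%. The median local background, relative to the median of the whole list, was 1.01 in *primpol* and 0.988 in wild type in the densest group, and 0.936 and 0.958 in the sparsest group. Its part in the pattern was not tested. The gradient depended on the threshold. With the minimum of 2 on the −log10 q-value the ratio was 1.40 in the densest and 1.64 in the sparsest group, the opposite order with overlapping intervals.

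**Figure D4:**
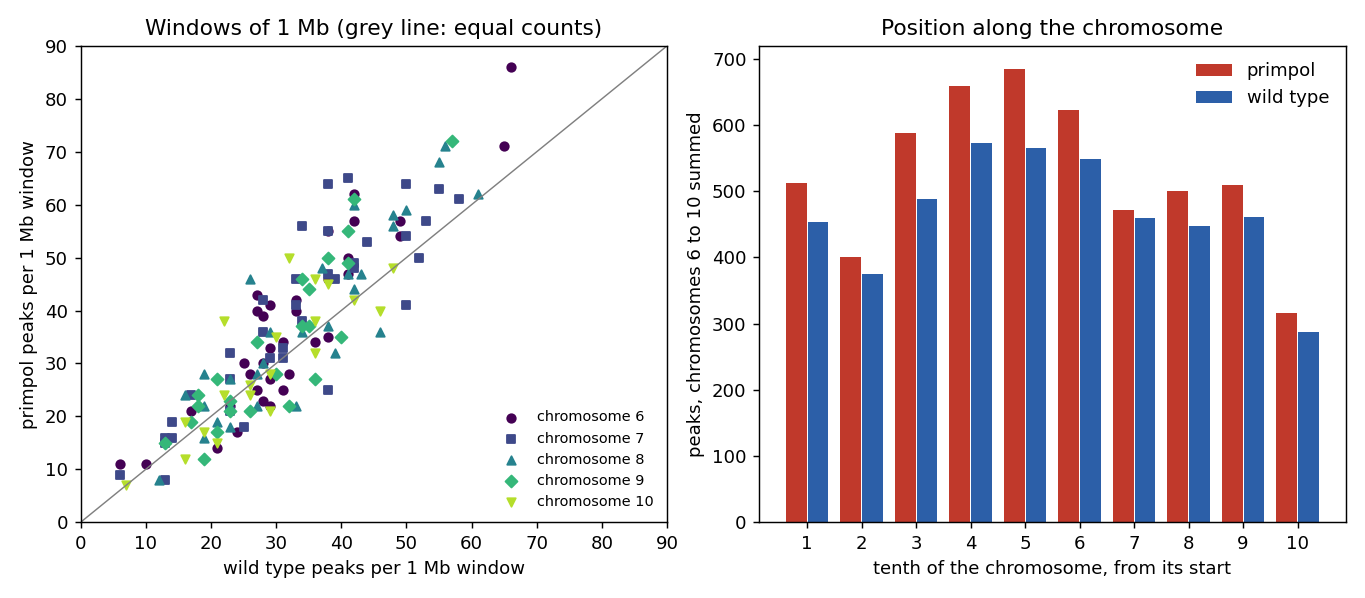
Left, peaks per whole 1 Mb window in *primpol* (vertical axis) against wild type (horizontal axis), 1 point per window, coloured by chromosome, with a grey line of equal counts. Right, peaks of chromosomes 6 to 10 summed over 10 segments of equal length per chromosome, numbered from its start, *primpol* in red and wild type in blue. *Primpol* had more peaks in 96 of 144 windows, and both genotypes had fewest peaks in the last segment, 316 in *primpol* and 288 in wild type.

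Single windows moved in both directions. The largest excess in *primpol* was on chromosome 7, with 64 *primpol* and 38 wild type peaks between 9 and 10 Mb, followed by 65 and 41 peaks between 19 and 20 Mb. The largest deficit was also on chromosome 7, with 25 *primpol* and 38 wild type peaks between 23 and 24 Mb. Covered length did not fall there, with 51.3 kb in *primpol* and 46.9 kb in wild type. Chromosome 7 had more *primpol* peaks in 29 windows and fewer in 6, whereas chromosome 10 had more in 8 and fewer in 8.

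The densest windows coincided on 2 of the 5 chromosomes. On chromosome 6 the window from 13 to 14 Mb was the densest in both, with 86 *primpol* and 66 wild type peaks. On chromosome 9 it was that from 10 to 11 Mb, with 72 and 57. Elsewhere the lists chose different windows. On chromosome 8 the densest *primpol* window was 11 to 12 Mb, with 71 *primpol* and 56 wild type peaks, and the densest wild type window 2 to 3 Mb, with 62 and 61. On chromosome 10 the densest *primpol* window was 5 to 6 Mb, with 50 *primpol* and 32 wild type peaks, and the densest wild type window 15 to 16 Mb, with 48 in both. On chromosome 7 they were 19 to 20 Mb, given above, and 17 to 18 Mb, with 61 *primpol* and 58 wild type peaks.

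Chromosome ends were sparse. Over the 5 chromosomes the first Mb held 25 peaks per Mb in *primpol* and 22.8 in wild type, and the last Mb 16 and 11, against 37.0 and 32.9 between them. Chromosome 8 was the exception at its start, with 59 *primpol* and 50 wild type peaks in the first Mb. Its first *primpol* peak, at 170 to 636, had the highest −log10 q-value of the *primpol* list on that chromosome, 5.82, with a wild type partner at 144 to 587 of 2.71. On chromosome 6 the highest −log10 q-value in *primpol*, 6.59, belonged to its last peak, at 35464024 to 35464652, which had no partner. By height the 2 *primpol* peaks ranked only 568 on chromosome 8 and 193 on chromosome 6. Their local backgrounds were 3.03 and 3.58, against *primpol* medians of 7.01 and 6.89 on those chromosomes. The part of background in these scores was not tested.

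The most prominent peak on these chromosomes was common to both genotypes. It lay on chromosome 9, at 3960008 to 3961184 in *primpol*, where its height was 63.2 and its −log10 q-value 24.6, and at 3959985 to 3961176 in wild type, where they were 40.8 and 16.2. It ranked 4 by height in the whole *primpol* list and 7 in the whole wild type list. The next highest peaks of chromosome 9 reached only 28.0 in *primpol* and 25.7 in wild type. Fold enrichment at the peak was 5.69 in *primpol* and 5.91 in wild type. Coordinates are those of Galgal5, and the genes and sequence at these positions were not analysed here.

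On chromosome 10 the highest peak was also the same in both lists. Its height was 30.7 in *primpol* (1588258 to 1590017) and 24.4 in wild type (1588326 to 1590036). On the other chromosomes the lists differed in their highest peak. On chromosome 6 the highest *primpol* peak, at 13148798 to 13158207 with a height of 30.05, was also the widest at 9410 bp, and its wild type partner of 9159 bp ranked 6. The highest wild type peak, at 20680781 to 20681811 with a height of 23.7, had a *primpol* partner that ranked 5.

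Some of the highest peaks were not strong by other measures. On chromosome 7 the highest *primpol* peak, at 36677831 to 36678042 with a height of 26.03, ranked only 245 by −log10 q-value on its chromosome. The highest wild type peak there, at 7985486 to 7986957 with a height of 23.4, ranked 1 by that measure. On chromosome 8 it was the wild type peak, at 18905298 to 18905581 with a height of 21.9, that ranked low, at 297. The highest *primpol* peak of chromosome 8, at 14259186 to 14269753 with a height of 28.1, was 10568 bp wide and ranked 18.

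Several of the widest peaks were matched by peaks of nearly the same extent. On chromosome 10 the widest peak was the same in both lists, 10245 bp at 5420767 to 5431011 in *primpol* and 10211 bp at 5420828 to 5431038 in wild type. On chromosome 8 a *primpol* peak of 12812 bp matched the widest wild type peak, of 12625 bp at 13997619 to 14010243. The widest *primpol* peak on chromosome 7, at 19647685 to 19657671, measured 9987 bp and its wild type partner 9568 bp. On chromosome 9 the widest *primpol* peak, at 12339563 to 12348860, measured 9298 bp and its partner 9632 bp, and a *primpol* peak of 8960 bp matched the widest wild type peak, of 9685 bp at 8550561 to 8560245. The widest *primpol* peak of chromosome 8 and the widest wild type peak of chromosome 7, given above, met several peaks each. So did the widest wild type peak of chromosome 6. There *primpol* peaks of 4423 and 2443 bp met that wild type peak, of 9280 bp at 10559075 to 10568354.

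Individual pairs changed rank in both directions, although the typical change was small. Only pairs in which a peak exceeded its list's median height were ranked. The *primpol* minus wild type difference in height percentile had a median of 3.33 on chromosome 6, 8.18 on chromosome 7, 2.41 on chromosome 8, 0.741 on chromosome 9 and 0.291 on chromosome 10. The largest rise was 67.3 percentile points, on chromosome 7 at 26687322 to 26687656 in *primpol*. Its percentile of fold enrichment moved the other way, so this rise depended on the measure. Of the pair that rose most on each chromosome, those on chromosomes 6 (64.5 points, at 14121585 to 14122728) and 9 (60.0 points, at 21382744 to 21383843) rose by fold enrichment too. By that measure they rose 44.5 and 18.6 points.

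The pairs that lost most rank also fell by fold enrichment on all 5 chromosomes, by less. Those falls ran from -12.4 points on chromosome 6 to -39.1 on chromosome 7. Fold enrichment is computed from height, so it is not an independent measure. The greatest loss was on chromosome 7, where the height percentile of the *primpol* peak at 33688891 to 33689556 was 5.41 and that of its wild type partner at 33688066 to 33689054 was 82.5, a difference of -77.1 points. On chromosome 10 the difference was -76.1 points, at 20157277 to 20158200 in *primpol*. On chromosome 9 the *primpol* peak at 701701 to 702128 stood at percentile 32.7 and its wild type partner at 701674 to 702131 at 99.5. The differences on chromosomes 6 and 8 were -64.6 and -64.4 points.

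The highest peak without a partner on each chromosome was 192 to 718 bp wide in *primpol* and 200 to 647 bp wide in wild type, and the examples were chosen after their values were seen. On chromosome 10 a *primpol* peak of 192 bp at 11240463 to 11240654 had a height of 26.01, a −log10 q-value of 6.19 and the highest fold enrichment of its chromosome, 3.83. On chromosome 9 a wild type peak of 327 bp at 12766697 to 12767023 reached a height of 20.6. The widest unshared *primpol* peak, 4229 bp, was on chromosome 8 at 2977134 to 2981362, and the widest unshared wild type peak, 3527 bp, on chromosome 6 at 5245029 to 5248555.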

How the data were processed

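Per the labels and the study's methods, reads were trimmed with Trim Galore 0.4.4 and aligned with Bowtie2 2.2.6, uniquely matching chicken reads (Galgal5) were kept, and broad peaks were called against input with MACS2 2.1.1.20160309. Genomic DNA had been cut with restriction enzymes before immunoprecipitation and sheared afterwards. The file headers give a genome size of 1870 Mb and q-value cutoffs of 0.05 and 0.1. Up to their last peaks the assembled chromosomes spanned 1013 Mb, less than that setting. How both replicates entered 1 list is not stated. The deposited values for each peak were a signal (fragment pileup, called height), a fold enrichment ratio over local background with 1 added to each side, and the −log10 p-value and −log10 q-value of the authors' caller, the last being its score for the peak, each averaged over the peak. None of the deposited signal and score columns is scaled to the spike-in.

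Positions, gaps, overlaps of at least 1 bp and windows of 1 Mb were computed with Python 3.11.15, pandas 2.3.3, numpy 2.4.6 and scipy 1.17.1. Overlaps gave the same counts with bedtools 2.31.1, and the functions were tested on simulated data. Local background was derived from height and fold enrichment. For the common depth, *primpol* heights and backgrounds were multiplied by 0.763, and peaks whose −log10 p-value stayed above 2.65, the lowest in wild type, were kept. Their positions and widths stayed as called. Intervals are Wilson for shares, exact for ratios of numbers and on the log scale for ratios of shares. Each genotype had 1 list, so no test between genotypes was made. Peaks were named by rule, as the highest, the widest, the longest gap, the densest window and the pairs with the largest rank changes on each chromosome, and the runs with most peaks. The members and rules were chosen with earlier results of these data known. Alternatives covered the q-value threshold, input depth, each chromosome left out, merging of peaks, the measure of spacing, the overlap rule, the ranking column and lists of equal length. RNase H libraries, spike-in reads, genes and sequence were not analysed here.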

Additional observations from a re-analysis of the deposited data

How the results depend on the processing

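Leaving out any 1 of the 5 chromosomes moved none of the 12 main values beyond its interval. Over all alternatives, 78 values stayed within the interval, 36 moved outside it and 4 changed direction. Most of the 78 came from leaving out a chromosome, which keeps most of the same peaks. Wild type width and spacing cannot change when *primpol* alone is rescored. Among the other alternatives more values moved than stayed. Those 4 were in the ratio of peak numbers, 0.641 at the common input depth and 0.959 in the 20000 best-scoring peaks of each list by −log10 q-value, and in that of the densest 48 windows, 0.715 and 0.998 under the same settings. Under both settings the order of the genotypes also turned in spacing and in the shared percentages, values that are not ratios and are not among the 4. Both settings take away more *primpol* than wild type peaks by construction. The list of 20000 peaks, the results by groups of windows and the ranking by pairs were chosen after seeing the data.

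At the common input depth the ratio of shares was 0.886, the *primpol* median width 1097 bp, spacing 23.5 kb in *primpol* and 15.2 kb in wild type, the shared percentages 68.9% in *primpol* and 47.1% in wild type, and the ratio in the sparsest windows 0.532. With a minimum of 2 on the −log10 q-value the ratio of numbers was 1.38, widths 1415 bp in *primpol* and 1136 bp in wild type, spacings 74.5 and 100.7 kb, shared percentages 34.2 and 47.4%, and ratios 1.40 in the densest and 1.64 in the sparsest windows. In the 20000 peaks, widths were 1309 bp in *primpol* and 1116 bp in wild type, spacings 37.7 and 36.9 kb, shared percentages 51.5 and 50.2%, the rank correlation 0.603 and the ratio in the sparsest windows 0.845.

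Merging peaks within 1 kb gave widths of 860.0 bp in *primpol* and 839 bp in wild type and spacings of 14.98 and 17.9 kb, and distances between midpoints were 14.3 and 16.4 kb. Overlap of at least 50% of both peaks left 28.3% of *primpol* and 31.9% of wild type peaks shared, with a rank correlation of 0.624, and a partner within 1 kb gave 63.9 and 72.4%. Ranking by fold enrichment gave a correlation of 0.401 and by −log10 q-value 0.419. By percentile of fold enrichment the pairs that rose most changed direction on chromosome 7 (-4.85 points), chromosome 8 (-52.5) and chromosome 10 (-21.3). Except where the construction is named, the cause was not tested.

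No paired analysis was possible because the replicates of a genotype were not given as separate lists, so that leaving out a replicate was not possible either. GC content, G4 and GAA motifs in peaks were planned and not run. The median −log10 q-values, 1.51 in *primpol* and 1.46 in wild type, lie near the threshold, and how depth limits the calls was not tested apart from the rescoring, which lowers *primpol* only.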

Other observations

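The order of the 5 chromosomes by ratio of *primpol* to wild type peak numbers changed with the threshold. As deposited, chromosome 7 had the largest ratio, 1.18, and chromosome 10 the smallest, 1.06. With a minimum of 2 on the −log10 q-value, chromosome 7 again had the largest, 1.63 (233 *primpol* and 143 wild type peaks), and chromosome 9 the smallest, 1.15 (135 and 117). Among the 20000 best-scoring peaks of each list by −log10 q-value, chromosome 7 had 1.05 and chromosome 8 the smallest ratio, 0.821 (391 *primpol* and 476 wild type peaks). At the common input depth chromosome 6 had the largest, 0.672, and chromosome 10 the smallest, 0.610. These differences between chromosomes were not tested.

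The placement of edges in pairs was tightest, relative to width, in the widest pairs. The median edge shift was 98.0 bp in pairs with a mean width under 0.5 kb, 368 bp from 1 to under 2 kb and 128 bp at 5 kb or more, and the median shift as a share of the mean width of each pair was 28.5%, 27.8% and 2.08%.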
